A study of Homo sapiens with 45 samples.

Results

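Depletion of MDC1 in estradiol-treated HCC1428 cells was examined in 6 RNA sequencing libraries out of the 45 in the series. They were the libraries titled siMDC1_E2 replicates 1 to 3 and siNT_E2 replicates 2 to 4 of that line, taken by title, and the effect was siMDC1_E2 minus siNT_E2 over all genes. Of the 57353 gene symbols in the count table, 18286 had enough counts in HCC1428 to be tested. HCC1428 is an established line of invasive ductal breast carcinoma, and the series sets it beside a pair of lobular carcinoma lines, MM134 (MDA MB 134VI) and MM330 (MDA MB 330), to ask how far the estrogen response uses MDC1, the estrogen receptor and FOXA1.

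All cells were held for 3 days in charcoal-stripped serum, which lacks steroid hormone, and then received an siRNA, a short double-stranded RNA through which a matching transcript is degraded. The siMDC1_E2 cells received an siRNA against MDC1 and the siNT_E2 cells a non-targeting siRNA; 24 h later both received 100 pM estradiol (E2), and RNA was collected after a further 24 h. HCC1428 also has 3 libraries each of siER_E2 (siRNA against ESR1, with E2), siFOXA1_E2 (siRNA against FOXA1, with E2) and siNT (non-targeting siRNA with the vehicle, 0.01% ethanol). MDC1 was depleted only in the presence of E2, so its effect without hormone was not measured, and neither the siRNA sequence nor the number of duplexes is stated in the labels. They do not say whether replicates came from separate cultures, so p-values measure only the spread between these libraries, which may be technical.

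MDC1 is a large nuclear scaffold protein of the response to DNA double-strand breaks. It binds the phosphorylated form of the histone variant H2AX beside a break and holds ATM, the MRE11, RAD50 and NBN complex and the ubiquitin ligase RNF8 there, so that 53BP1 and BRCA1 are recruited. The estrogen receptor, encoded by ESR1, is a transcription factor that binds DNA after estradiol binds it, with FOXA1 opening chromatin at many of its sites. In receptor-positive breast cancer cells it raises genes of secretion, growth signalling and the cell cycle, and cells held without hormone re-enter the cycle when estradiol is added.

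The 6 libraries held 23.2 to 35.1 M counts (median 30.4), within the range of 21.0 to 36.7 M over all 45. The library siNT_E2 replicate 2 stood apart from the other siNT_E2 libraries. Counts at processed pseudogenes took 0.469% of its total. It was among 11 libraries of the series at 0.386 to 0.553%, against 0.162 to 0.208% in the other 34. In HCC1428 this class also held siNT replicates 1 and 2 (0.444 and 0.436%) and siER_E2 replicates 2 and 3 (0.428 and 0.420%). It held no siMDC1_E2 or siFOXA1_E2 library, so it was unevenly spread over the groups. Mitochondrially encoded transcripts took 14.9 to 16.2% of counts in siMDC1_E2 and 11.7 to 14.3% in siNT_E2. They took 15.9 to 18.7% in the other 9 HCC1428 libraries, so siNT_E2 was the low group of the line. The siMDC1_E2 and siNT_E2 libraries did not overlap, and their means differed by 2.8 percentage points. The two-sided exact permutation p was 0.1, the smallest that 3 libraries against 3 can give. All 9 luminal markers checked, among them ESR1, FOXA1, GATA3 and the keratins KRT8, KRT18 and KRT19, were above 1 CPM (counts scaled to library totals), while 1 of 3 basal, 1 of 16 immune, 3 of 12 endothelial and 2 of 14 fibroblast markers were. Those were TP63 (1.28 to 1.94 CPM), CD8A (5.64 to 6.98 CPM), EGFL7 (73.1 to 89.8 CPM), ESAM (4.55 to 6.47 CPM), VWF (1.02 to 3.58 CPM), COL1A1 and COL5A1. The summed endothelial markers were at 87.4 to 96.1 CPM in siMDC1_E2 and 82.0 to 89.4 CPM in siNT_E2. The defining markers KRT5 (basal), PTPRC (immune), CDH5 (endothelial) and PDGFRA (fibroblast) had no counts in the 6 libraries.

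The siRNA lowered its target. MDC1 (chr6:30699807-30717889, minus strand, GRCh38) stood at 43.3, 41.0 and 47.5 CPM in the siMDC1_E2 libraries and at 168, 179 and 157 CPM in siNT_E2. Those 3 values were also below all 12 other HCC1428 libraries. The log2 change was -1.94 (SE 0.06), a 3.83-fold fall (edgeR quasi-likelihood test with Benjamini-Hochberg adjusted p = 2.9e-13). MDC1 mRNA itself was lower in vehicle (mean 63.9 CPM) and after the siRNAs against ESR1 (74.5 CPM) and FOXA1 (90.2 CPM) than in siNT_E2, and the siMDC1_E2 level lay a further 0.76 and 1.04 log2 units below those after ESR1 and FOXA1 siRNA. Among 20 tested genes that neighbour MDC1 on chromosome 6, 2 rose and 5 fell, with a median log2 change of -0.04. Over all genes, 13.2% rose and 15.9% fell.

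**Figure D1:**
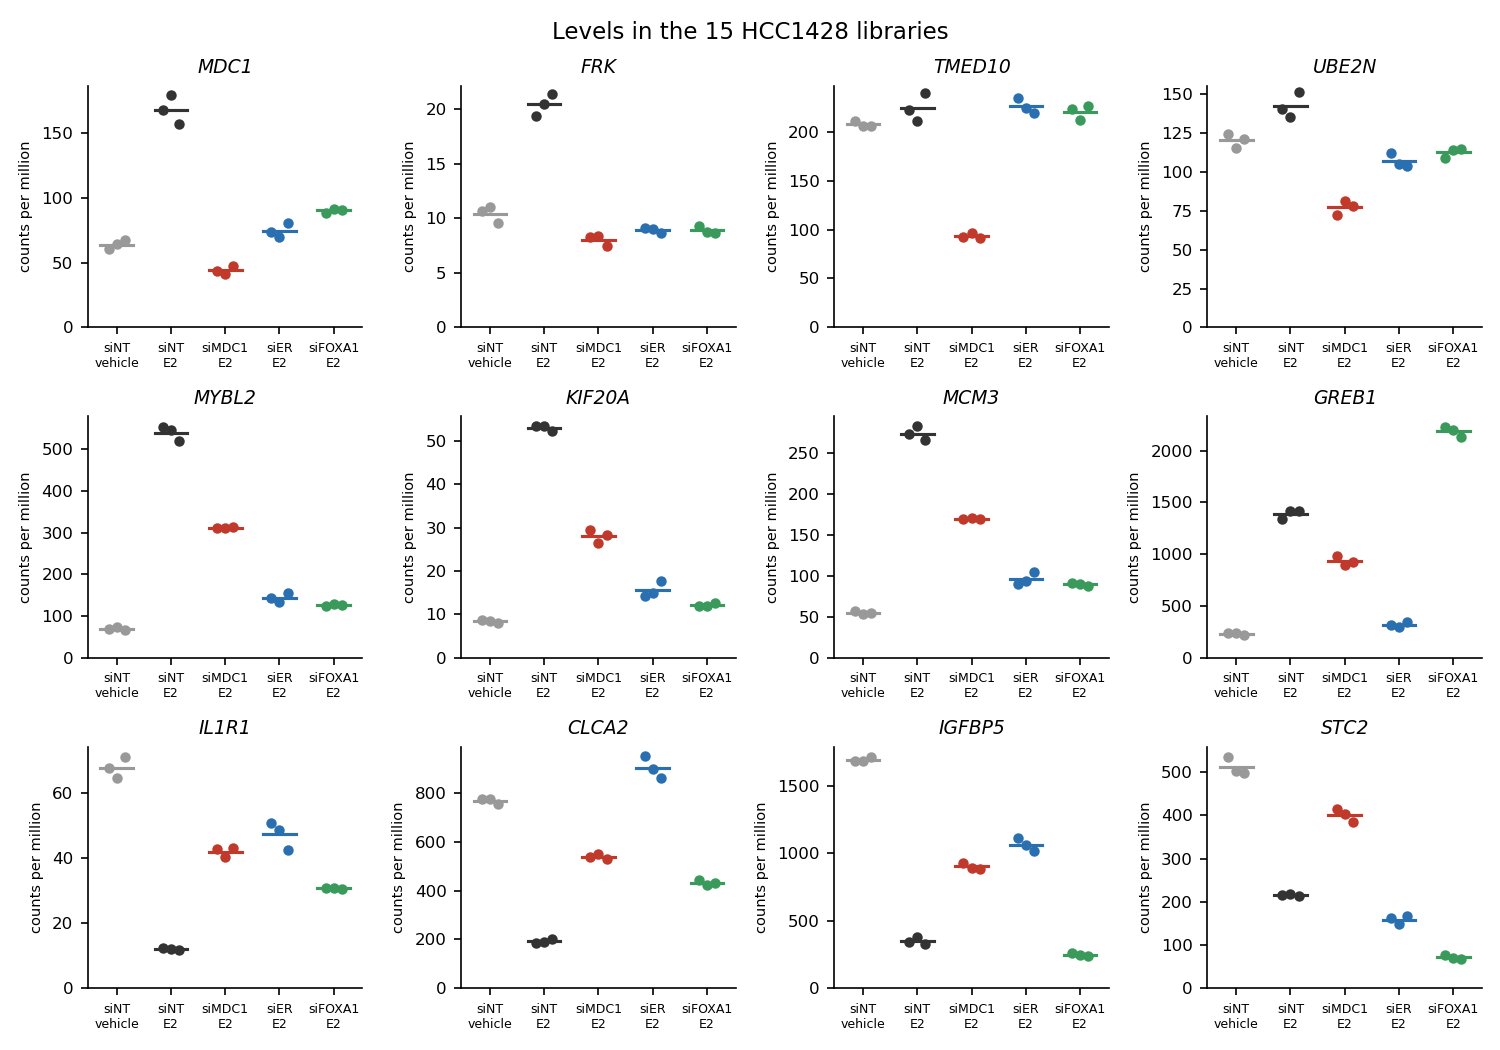
Normalised level (CPM, vertical axis of each panel) of 12 genes in the 15 HCC1428 libraries by group (horizontal axis); each point is a library and each bar a group mean. MDC1 in siMDC1_E2 sits at 41.0 to 47.5 CPM, below every other library, while CLCA2 and IL1R1 are higher in siMDC1_E2 than in siNT_E2 and GREB1, MYBL2 and MCM3 are lower.

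The siRNA was followed by many small changes. At an adjusted p below 0.05, 5319 of 18286 genes were called (29.1%), 2410 higher (13.2%) and 2909 lower (15.9%), and the median log2 change over all genes was -0.01. The median size of a called change was 0.30 log2 units, and 4106 of the calls (77.2%) were smaller than 0.5. Calls were more frequent at higher levels. Of 9660 genes that reached 10 CPM on average in siMDC1_E2 or siNT_E2, 4394 were called. Among called genes that reached 10 CPM on average in siMDC1_E2 or siNT_E2, 15 were 2-fold or more higher (0.082% of genes tested) and 13 were 2-fold or more lower (0.0711%). In all, 7377 genes (40.3%) had no overlap between the groups. Leaving out any single compared library left 4363 to 4776 calls, with 4776 when siNT_E2 replicate 2 was left out.

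No tested partner of MDC1 in break sensing rose, and many fell. Of 28 tested genes in a list of break sensing and MDC1 partners, 15 fell and 13 did not pass the test. The median log2 change was -0.18, where 15.9% of all genes fell and the all-gene median was -0.01. The fall was not particular to MDC1 siRNA. On log2 of CPM plus 1, the list median per library relative to the siNT_E2 mean was -0.215 to -0.182 in siMDC1_E2. It was lower still in siER_E2 (-0.329 to -0.287), siFOXA1_E2 (-0.279 to -0.247) and siNT (-0.299 to -0.236). UBE2N, the ubiquitin-conjugating enzyme that works with RNF8 to build ubiquitin chains at breaks, had the largest change of the list. Its level was 72.2, 81.6 and 78.4 CPM against 140, 135 and 152 CPM, a log2 change of -0.88 (SE 0.05; edgeR adjusted p = 4.9e-10). The 3 siMDC1_E2 values for UBE2N lay below the other 12 HCC1428 libraries, as did those of 367 genes (2.01%). UBE2N has processed copies in the genome, so its count may share reads with them.

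H2AFX, which encodes the histone variant whose phosphorylation MDC1 reads, was at 258, 280 and 277 CPM against 429, 427 and 376 CPM. Its groups did not overlap, and the log2 change was -0.60 (SE 0.05; edgeR adjusted p = 9.1e-08). The checkpoint kinase gene CHEK1 stood at 35.1, 37.8 and 36.8 CPM against 57.3, 53.2 and 59.0 CPM, a fall of 0.63 log2 units (edgeR adjusted p = 8.5e-07). Smaller falls were found for PIAS4, a SUMO ligase at breaks (-0.48), CLSPN, the CHEK1 adaptor claspin (-0.44), CHEK2 (-0.38), BRCC3, a deubiquitinase of the BRCA1-A complex (-0.33), PAXIP1 (-0.33), RNF168, the ligase that extends the RNF8 signal (-0.27), NBN (-0.27), TOPBP1 (-0.26), CDC27 (-0.26) and RAD9A (-0.18). MRE11 (-0.17; edgeR adjusted p = 0.034) and RIF1 (-0.21; edgeR adjusted p = 0.017) were near the threshold, and both lost the call without siMDC1_E2 replicate 2 or without siNT_E2 replicate 4; RIF1 was at -0.14 without the latter. ATM, the kinase that MDC1 binds, was at 28.7, 28.6 and 26.9 CPM against 24.9, 25.7 and 30.0 CPM, with overlapping groups and a log2 change of 0.06 (edgeR adjusted p = 0.5). ATR (0.06), TP53BP1 (0.01), RNF8 (-0.05) and RAD50 (-0.07) did not pass the test either.

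Genes of cell division were lower after MDC1 depletion. Of 39 tested genes of mitosis, 38 fell and none rose, with a median log2 change of -0.68, and NUSAP1 did not pass the test. Over all genes, 15.9% fell and 13.2% rose. In RNA from whole cultures, fewer dividing cells and less of these transcripts per cell cannot be told apart. MYBL2, a transcription factor of the complex that drives late cell-cycle genes, was at 313, 310 and 314 CPM against 555, 548 and 519 CPM. Its log2 change was -0.79 (SE 0.04; edgeR adjusted p = 2.6e-10), with every siMDC1_E2 library below every siNT_E2 library. KIF20A, a kinesin of cytokinesis, was at 29.4, 26.4 and 28.2 CPM against 53.3, 53.3 and 52.3 CPM, a change of -0.92 (SE 0.07; edgeR adjusted p = 7.1e-09). BIRC5, the survivin subunit of the chromosomal passenger complex, was at 92.7, 89.2 and 94.7 CPM against 144, 150 and 148 CPM (-0.68; edgeR adjusted p = 1.5e-08). TPX2, which activates Aurora A on the spindle, was at 95.1, 95.2 and 95.8 CPM against 134, 134 and 139 CPM (-0.51; edgeR adjusted p = 1.9e-08). In none of these 4 genes did the groups overlap. They were named for their small p, and 40.3% of all genes had no overlap. Outside the list, the abscission protein gene CEP55 was at 31.3, 31.5 and 34.8 CPM against 68.4, 66.5 and 70.4 CPM, a change of -1.07 that put it among the lowest genes of the comparison.

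Set against the vehicle, these genes stayed well above the hormone-free level. Per library, the median log2 level (of CPM plus 1) of the mitosis list relative to the siNT_E2 mean was -0.65, -0.65 and -0.64 in siMDC1_E2. It was -1.68, -1.62 and -1.43 in siER_E2, -1.75, -1.78 and -1.75 in siFOXA1_E2 and -2.36, -2.41 and -2.43 in siNT, while the siNT_E2 libraries themselves ran from -0.04 to 0.05. The 5 groups did not overlap, siER_E2 and siFOXA1_E2 were near neighbours, and siMDC1_E2 lay nearest to siNT_E2. In the direct comparison of siMDC1_E2 with siNT, 39 of 39 mitosis genes were higher (26.2% of all genes were, and 22.2% lower), with a median of 1.9. E2 with the non-targeting siRNA raised the same 39 by a median of 2.6 (29.1% of all genes rose and 25.7% fell), a comparison that shares the siNT libraries.

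DNA replication genes followed the same direction. Of 41 tested, 39 fell and none rose, with a median log2 change of -0.46, where 15.9% of all genes fell and 13.2% rose. The exceptions were RPA2 and RPA3, subunits of the single-strand binding protein. On log2 of CPM plus 1, per-library medians relative to the siNT_E2 mean were -0.45 to -0.42 in siMDC1_E2. They were lower in siER_E2 (-1.57 to -1.41), siFOXA1_E2 (-1.63 to -1.55) and siNT (-2.19 to -2.1). MCM3, a subunit of the replicative helicase, was at 169, 171 and 170 CPM against 273, 283 and 266 CPM, a change of -0.69 (SE 0.04; edgeR adjusted p = 2.3e-09). MCM10, which helps to activate that helicase, was at 112, 112 and 118 CPM against 169, 179 and 174 CPM (-0.61; edgeR adjusted p = 1e-08). MCM2 stood at 162 CPM in each siMDC1_E2 library and at 223, 239 and 241 CPM in siNT_E2, and MCM7 changed by -0.45. No siMDC1_E2 library reached the lowest siNT_E2 library for any of these MCM genes, which were named for their small p. The same held for 21.7% of all genes. Enzymes of nucleotide supply fell in 15 of 24 cases with 1 rise (median -0.21), led by the thymidine kinase TK1 (-0.67), the thymidylate synthase TYMS (-0.64) and the ribonucleotide reductase subunits RRM2 (-0.50) and RRM1 (-0.45).

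Genes of homologous recombination and the Fanconi pathway repair breaks and crosslinks in replicating DNA. They fell in 27 of 32 cases (15.9% of all genes fell), with a median log2 change of -0.43. The fall was not particular to MDC1 siRNA. On log2 of CPM plus 1, per-library medians relative to the siNT_E2 mean were -0.43 to -0.36 in siMDC1_E2. They were lower in siER_E2 (-1.29 to -1.17), siFOXA1_E2 (-1.47 to -1.38) and siNT (-1.68 to -1.64). UBE2T, the ubiquitin-conjugating enzyme of the Fanconi pathway, stood at 27.9, 33.8 and 31.9 CPM against 49.9, 54.0 and 56.7 CPM (-0.78; edgeR adjusted p = 7.3e-08). BRCA1 was at 82.6, 81.2 and 88.2 CPM against 115, 118 and 126 CPM (-0.51; edgeR adjusted p = 7.7e-07), FANCI changed by -0.67 and the exonuclease gene EXO1 by -0.60. RAD52 was the exception that rose (0.36), a gene singled out after its value was seen. End-joining genes changed less, with 7 of 16 lower, none higher and a median of -0.13. The Ku subunits XRCC6 and XRCC5 were at -0.33 and -0.29. Per-library medians of the end-joining list were -0.16 to -0.09 in siMDC1_E2. They were lower in siER_E2 (-0.25 to -0.22), siFOXA1_E2 (-0.30 to -0.29) and siNT (-0.43 to -0.35).

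Regulators of the passage from G1 to S fell in 20 of 29 cases and rose in 4 (median -0.33). Over all genes, 15.9% fell and 13.2% rose. E2F1, the activator of replication genes, was at 131, 133 and 140 CPM against 223, 238 and 224 CPM (-0.76; edgeR adjusted p = 2.1e-08), E2F2 changed by -0.79 and the cyclin gene CCNE2 by -0.60. The 4 that rose, chosen for mention after their values were seen, were E2F5 (0.66), CDK6 (0.42), CCNE1 (0.25) and MYC (0.15). CDKN1A encodes p21, an inhibitor of cyclin-dependent kinases that p53 induces after DNA damage. It was at 24.2, 26.2 and 27.2 CPM against 42.9, 42.9 and 42.6 CPM, a change of -0.73 (SE 0.06; edgeR adjusted p = 1e-07), and its mean in vehicle was 10.8 CPM. Of 26 tested p53 targets, CDKN1A included, 5 rose and 6 fell, with a median of 0.01. These counts are read against the same all-gene shares. MDM2, the ligase that degrades p53, changed by -0.36, the nuclease gene AEN by -0.62 and TP53INP1, a stress-induced gene that is also in the list of estrogen-repressed targets, by 0.86.

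**Figure D2:**
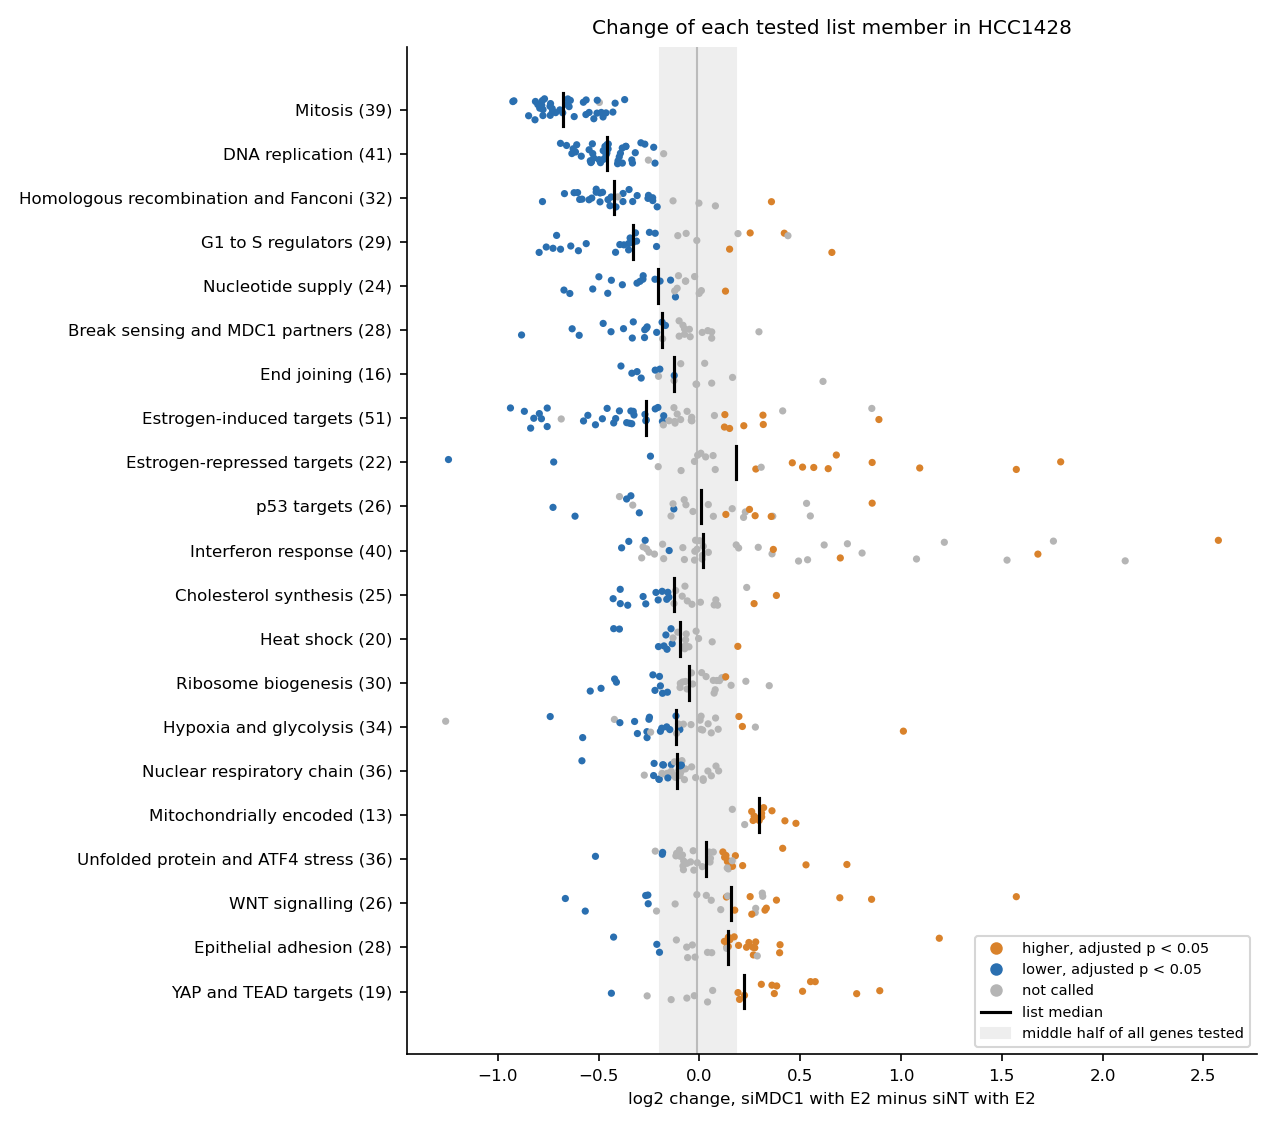
Log2 change of each tested member (horizontal axis, siMDC1_E2 minus siNT_E2) in 21 gene lists (vertical axis); points are genes, coloured by whether they passed the test, black bars are list medians, and the grey band runs from the lower to the upper quartile of all genes, -0.20 to 0.18. Mitosis (median -0.68), DNA replication (-0.46) and homologous recombination (-0.43) lie left of the band, and the median of estrogen-repressed targets is 0.18.

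Promoter sequences are shown for 5 genes of the mitosis and replication lists, to show letters that cell-cycle factors are known to bind. They were taken from the RefSeq promoter table (GRCh38.p14), chosen after values were seen: KIF11 and PLK1, a spindle motor and a mitotic kinase, CDCA8, a partner of survivin, MCM3, and GINS2, another helicase subunit. Each is the 250 bases before the annotated start, 5′ to 3′ on the gene's strand. Capitals mark TTTGAA (the core of the cell-cycle homology region) and CCAAT (the NF-Y box) in KIF11, CDCA8 and PLK1, and GGCGGGAA (a form of the E2F site) in MCM3 and GINS2, on either strand; in CDCA8 a TTTGAA and a CCAAT match share 1 base.
KIF11: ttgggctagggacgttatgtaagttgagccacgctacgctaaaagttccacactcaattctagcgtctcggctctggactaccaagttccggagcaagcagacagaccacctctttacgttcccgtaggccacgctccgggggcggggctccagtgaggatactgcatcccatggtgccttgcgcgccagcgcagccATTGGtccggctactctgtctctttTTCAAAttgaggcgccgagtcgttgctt
CDCA8: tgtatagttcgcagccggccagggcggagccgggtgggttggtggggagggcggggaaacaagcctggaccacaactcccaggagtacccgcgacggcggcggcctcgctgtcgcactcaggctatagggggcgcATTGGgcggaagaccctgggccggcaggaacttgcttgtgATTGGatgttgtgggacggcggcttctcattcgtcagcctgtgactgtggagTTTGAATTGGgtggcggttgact
PLK1: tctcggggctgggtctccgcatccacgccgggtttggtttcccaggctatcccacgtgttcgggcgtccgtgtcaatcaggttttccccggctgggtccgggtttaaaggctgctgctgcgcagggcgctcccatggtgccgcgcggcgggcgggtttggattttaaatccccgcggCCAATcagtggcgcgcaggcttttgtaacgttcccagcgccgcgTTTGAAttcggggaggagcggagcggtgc
MCM3: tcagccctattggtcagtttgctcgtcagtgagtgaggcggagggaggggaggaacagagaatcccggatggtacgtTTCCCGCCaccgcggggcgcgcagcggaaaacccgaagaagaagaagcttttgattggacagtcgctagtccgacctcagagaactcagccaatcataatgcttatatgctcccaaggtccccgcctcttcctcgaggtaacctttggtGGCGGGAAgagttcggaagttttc
GINS2: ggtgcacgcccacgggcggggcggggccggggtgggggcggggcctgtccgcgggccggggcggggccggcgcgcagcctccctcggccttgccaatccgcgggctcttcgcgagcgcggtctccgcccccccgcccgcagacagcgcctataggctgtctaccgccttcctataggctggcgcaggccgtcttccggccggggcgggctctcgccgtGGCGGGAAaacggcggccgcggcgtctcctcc
They lie at chr10:92592880-92593129 (plus strand), chr1:37692266-37692515 (plus), chr16:23678639-23678888 (plus), chr6:52284743-52284992 (minus) and chr16:85688955-85689204 (minus). KIF11 RNA was at 59.6, 59.0 and 61.7 CPM against 87.5, 85.2 and 95.5 CPM (-0.58), CDCA8 at 26.9, 29.2 and 29.1 CPM against 47.0, 47.4 and 47.8 CPM (-0.74), and PLK1 at 36.4, 35.0 and 37.2 CPM against 60.2, 62.2 and 57.9 CPM (-0.73). GINS2 was at 79.5, 87.7 and 87.0 CPM against 122, 119 and 126 CPM (-0.53). CCAAT, marked only in the first 3, also occurs in the printed windows of MCM3 and GINS2.

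In such 250-base windows, searched on both strands, TTTGAA was found in 20 of 33 mitosis genes that had a promoter in the table (60.6%), in 0 of 34 replication genes and in 3 of 27 homologous recombination genes (11.1%). The share over 11437 tested genes with a promoter was 11.8%. CCAAT was found in 27 of 33 mitosis genes (81.8%), 20 of 34 replication genes (58.8%), 11 of 27 homologous recombination genes (40.7%) and 40.9% of all. GGCGGGAA was found in 1 of 33 mitosis genes (3.03%), 7 of 34 replication genes (20.6%), 6 of 27 homologous recombination genes (22.2%) and 5.45% of all. The marked TTTGAA matches begin 28, 23 and 29 bases before the start in KIF11, CDCA8 and PLK1. A match is a description of these letters and no measure of binding.

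The receptor itself changed little. ESR1 was at 394, 368 and 379 CPM in siMDC1_E2 and 405, 419 and 416 CPM in siNT_E2. The groups did not overlap, and the log2 change was -0.12 (SE 0.03; edgeR adjusted p = 0.01), a call lost without siMDC1_E2 replicate 2 (-0.10; edgeR adjusted p = 0.061) and in a fit of the 6 compared libraries only (edgeR adjusted p = 0.051). FOXA1 was at 316, 318 and 320 CPM against 274, 277 and 261 CPM, a rise of 0.23 (SE 0.04; edgeR adjusted p = 0.00043), and GATA3, its luminal partner factor, rose by 0.48. Of 29 tested steroid and nuclear hormone receptors 5 rose and 5 fell, close to the shares over all genes (13.2% and 15.9%). The thyroid hormone receptor THRB changed most, at 19.8, 18.0 and 19.4 CPM against 38.4, 34.2 and 39.2 CPM (-0.97; edgeR adjusted p = 3e-09), below all other HCC1428 libraries. Coactivators and corepressors split 6 up and 5 down among 26, read against the same all-gene shares. NCOA4 (0.30), CREBBP (0.27) and EP300 (0.21) were higher and HDAC2 (-0.29) was lower.

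Estrogen-induced targets fell in 29 of 51 cases and rose in 7, with a median log2 change of -0.26. Over all genes, 15.9% fell and 13.2% rose. GREB1, an early receptor target that binds the receptor, was at 980, 894 and 929 CPM against 1339, 1421 and 1414 CPM, a change of -0.57 (SE 0.05; edgeR adjusted p = 5.5e-08). Its mean in vehicle was 231 CPM, so siMDC1_E2 lay between the groups and nearer to siNT_E2. TFF1, a secreted trefoil peptide, was at 598, 641 and 605 CPM against 804, 837 and 818 CPM (-0.41; edgeR adjusted p = 0.00095) and averaged 42.6 CPM in vehicle. PDZK1, a scaffold of membrane transporters, was at 84.9, 81.4 and 94.3 CPM against 153, 155 and 153 CPM (-0.82; edgeR adjusted p = 2.1e-10). RET, a receptor tyrosine kinase, was at 251, 241 and 246 CPM against 419, 451 and 448 CPM (-0.84; edgeR adjusted p = 3.5e-10), and RAPGEFL1 changed by -0.79. For these 5 genes the knockdown groups lay wholly below siNT_E2, as for 21.7% of all genes.

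Other members of the induced list did not fall. The progesterone receptor gene PGR was at 118, 112 and 113 CPM against 107, 111 and 107 CPM (0.07; edgeR adjusted p = 0.3), though the ranges did not overlap. MYC was at 58.8, 63.1 and 59.8 CPM against 54.3, 58.6 and 51.2 CPM (0.15; edgeR adjusted p = 0.025), a call lost when siMDC1_E2 replicate 2, siNT_E2 replicate 2 or siNT_E2 replicate 4 was left out. CXCL12 was under 1 CPM in all 6 libraries. STC2, a secreted glycoprotein, was at 415, 403 and 384 CPM against 217, 218 and 214 CPM, a rise of 0.89 (SE 0.05; edgeR adjusted p = 3.2e-10). In HCC1428 the STC2 mean was 511 CPM in vehicle, so E2 lowered this listed induced target here. The other members that rose, chosen after their values were seen, were ABCA3 (0.32), UGCG (0.32), CA12 (0.22), MYB (0.13) and ADCY9 (0.12).

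Estrogen-repressed targets rose more often than they fell. Of 22 tested, 10 rose (13.2% of all genes did), 3 fell (15.9%) and the rest did not pass the test. The median was 0.18, at the upper quartile of all genes. On log2 of CPM plus 1, per-library medians relative to the siNT_E2 mean were 0.115 to 0.204 in siMDC1_E2. They were 1.03 to 1.15 in siNT. IL1R1, the interleukin-1 receptor, was at 42.8, 40.3 and 43.1 CPM against 12.3, 12.2 and 11.9 CPM, a change of 1.79 (SE 0.06; edgeR adjusted p = 5.4e-13), and its vehicle mean was 67.8 CPM. WNT11, a non-canonical WNT ligand, was at 9.49, 7.55 and 8.23 CPM against 2.38, 3.19 and 3.01 CPM (1.57; edgeR adjusted p = 1.2e-08). ERBB2, the growth factor receptor HER2, stood at 305, 302 and 300 CPM against 201, 212 and 200 CPM (0.57; edgeR adjusted p = 2.8e-10). Those 3 genes, named for their small p, lay wholly above siNT_E2, as did 18.7% of all genes. Each was higher still in vehicle. The 3 that fell were CYP24A1 (-1.24), the enzyme that degrades vitamin D, the transcription factor GATA4 (-0.72) and IER3 (-0.24); CYP24A1 and IER3 were chosen after their values were seen.

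A second pair of estrogen lists came from the lobular lines themselves, as genes that E2 raised or lowered in both MM134 and MM330. In HCC1428, where no library was used to choose them, 137 of the 150 raised genes and 84 of the 97 lowered genes were tested. After MDC1 depletion 71 of the 137 fell and 7 rose (median -0.30), and 37 of the 84 rose and 4 fell (median 0.34). Over all genes, 15.9% fell and 13.2% rose. Per-library medians were taken on log2 of CPM plus 1, which shrinks changes of genes with few counts, so they differ from the edgeR medians. The raised genes had medians of -0.26, -0.25 and -0.26 in siMDC1_E2 relative to the siNT_E2 mean, against -0.95, -0.97 and -1.03 in siNT. The lowered genes had medians of 0.25, 0.22 and 0.21 in siMDC1_E2, against 0.74, 0.79 and 0.81 in siNT. Both lists thus sat between siNT_E2 and the vehicle in every siMDC1_E2 library.

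**Figure D3:**
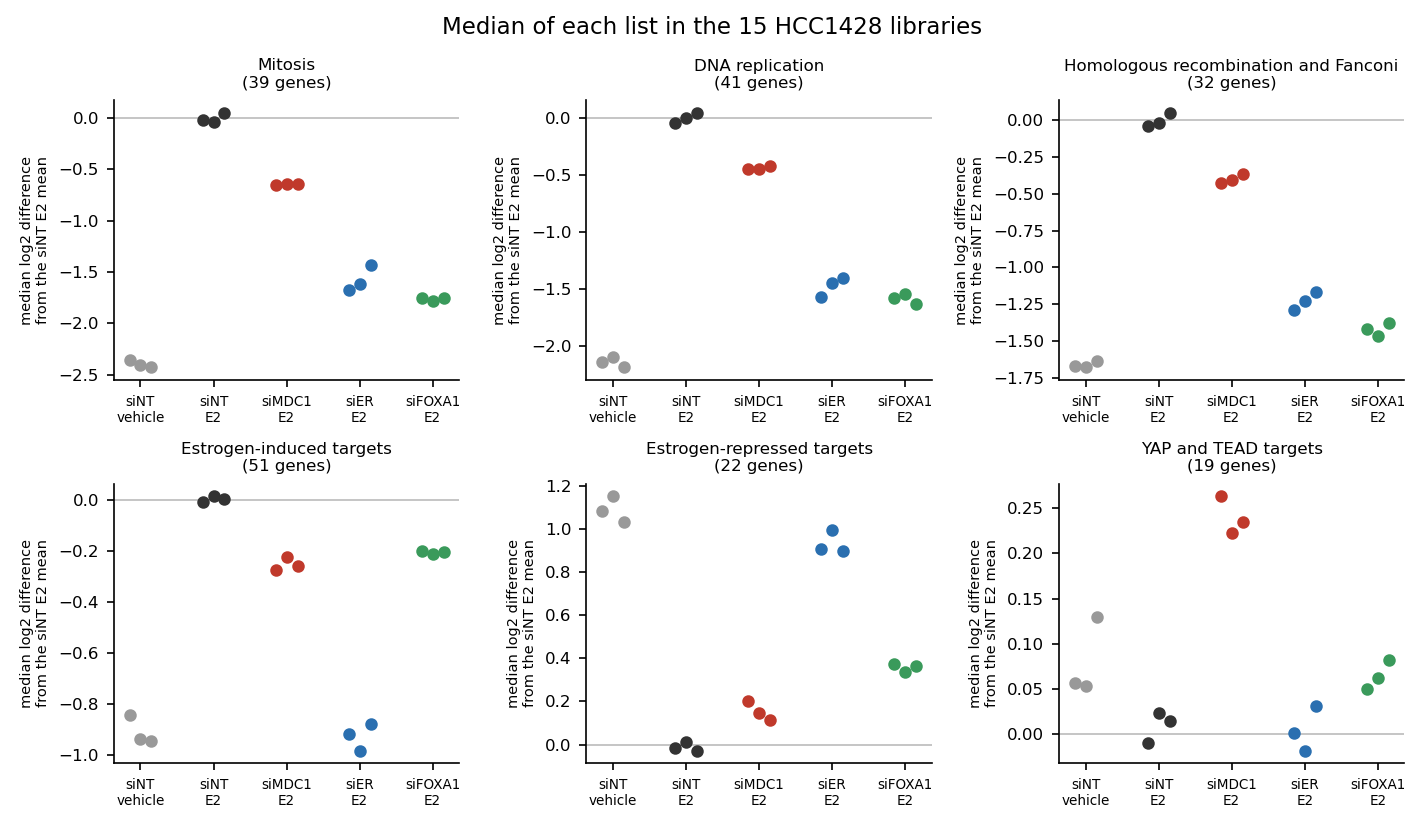
Median log2 level (of CPM plus 1) of 6 gene lists (1 panel each) relative to the siNT_E2 mean (vertical axis) in each of the 15 HCC1428 libraries (points), by group (horizontal axis). For mitosis the siMDC1_E2 libraries lie at -0.65 to -0.64, between siNT_E2 (-0.04 to 0.05) and siER_E2 (-1.68 to -1.43), and for YAP and TEAD targets they lie at 0.22 to 0.26, above the other groups.

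Many of the largest changes were in genes outside the estrogen lists. Among lowered protein-coding genes, ABHD12B, an abhydrolase family member, was at 60.9, 65.5 and 58.7 CPM against 169, 160 and 158 CPM (-1.40; edgeR adjusted p = 2.4e-13), with 41.4 CPM in vehicle. FRK, a SRC-family tyrosine kinase, was at 8.27, 8.36 and 7.49 CPM against 19.4, 20.5 and 21.4 CPM, a change of -1.34 (SE 0.08; edgeR adjusted p = 4.7e-10). TMED10, a cargo receptor of vesicles between the endoplasmic reticulum and Golgi, was at 92.8, 96.8 and 91.8 CPM against 223, 211 and 240 CPM (-1.26; edgeR adjusted p = 5.4e-13). TMED10 averaged 208 CPM in vehicle, 226 CPM in siER_E2 and 221 CPM in siFOXA1_E2, so only the siMDC1_E2 libraries among the 15 were low. CST9 (-1.12), SYTL5 (-1.10), the sphingosine phosphate receptor S1PR5 (-1.09), the cytoskeletal linker GAS2L3 (-1.04) and the histone gene HIST1H2BK (-1.0) completed the lowest genes; HIST1H2BK belongs to a family of near-identical copies and its count is uncertain.

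Among raised genes after IL1R1, the ephrin receptor EPHA4 was at 18.8, 16.5 and 17.1 CPM against 5.95, 6.08 and 5.73 CPM (1.56; edgeR adjusted p = 9.7e-11). CLCA2, a membrane protein of the chloride channel accessory family, was at 538, 551 and 528 CPM against 186, 190 and 204 CPM (1.48; SE 0.04; edgeR adjusted p = 5.4e-14). IGFBP5, which binds insulin-like growth factors, was at 933, 895 and 888 CPM against 341, 380 and 331 CPM (1.37; edgeR adjusted p = 5.4e-13). In vehicle EPHA4 averaged 25.7 CPM, CLCA2 769 CPM and IGFBP5 1697 CPM, all above siNT_E2. The chromatin organiser SATB1 (1.48), the hair keratin KRT86 (1.45), the deiodinase DIO1 (1.33), the lipase LIPH (1.17) and the autophagy adaptor FYCO1 (1.13) were the others. KRT86 has close paralogs that could share reads. TMCO1, a calcium channel of the endoplasmic reticulum, was at 117, 123 and 121 CPM against 50.9, 50.9 and 51.6 CPM (1.23; edgeR adjusted p = 3.8e-13); it averaged 135 CPM in siER_E2 and 110 CPM in siFOXA1_E2, and 61.4 CPM in vehicle.

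In 752 genes (4.11%) the siMDC1_E2 libraries lay beyond all 12 other HCC1428 libraries, 385 above (2.11%) and 367 below (2.01%). LAMP2, a lysosomal membrane protein, was at 291, 299 and 285 CPM against 153, 149 and 168 CPM (0.90; edgeR adjusted p = 1.2e-11); it averaged 279 CPM in siER_E2 and 276 CPM in siFOXA1_E2. EFEMP1, a matrix glycoprotein, was at 90.0, 91.9 and 94.9 CPM against 42.9, 45.5 and 44.2 CPM (1.06; edgeR adjusted p = 1.6e-12). CRIM1, which binds bone morphogenetic proteins, was at 62.1, 57.3 and 60.3 CPM against 31.4, 32.7 and 32.6 CPM (0.89; edgeR adjusted p = 8.7e-11), with group means of 33.8 to 44.0 CPM in vehicle, siER_E2 and siFOXA1_E2. The kinase gene FAM20C (0.86) and TEX19 (0.90) were the others at the top of this set. Of long non-coding genes with at least 5 CPM, the lowest were AC103770.1 (-1.5), MIR503HG (-1.15) and LINC00565 (-1.0), and the highest LINC01671 (1.10), SGMS1-AS1 (0.78) and AC008736.2 (0.75). The strand setting of the counting is not given, so SGMS1-AS1 cannot be told apart from its sense partner.

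Signalling lists, and the further lists below where no other share is given, are read against all genes. Of these, 13.2% rose and 15.9% fell. Called shares were larger at higher levels, with 4394 of 9660 genes called among those with at least 10 CPM. Whether list members exceeded genes of like level was not tested, here or for the other lists. YAP and TEAD targets and regulators rose in 12 of 19 cases and fell in 1 (median 0.22), with CRIM1, the angiomotins AMOTL2 (0.55) and AMOTL1 (0.51) higher and the coactivator WWTR1 (-0.44) lower. Their median relative to the siNT_E2 mean was 0.26, 0.22 and 0.24 in the siMDC1_E2 libraries and -0.02 to 0.03 in siER_E2. Growth factor receptors and ligands rose in 11 of 29 cases and fell in 5 (median 0.12). ERBB3, the kinase-impaired partner of ERBB2, was at 394, 381 and 381 CPM against 248, 252 and 249 CPM (0.62; edgeR adjusted p = 4.4e-11), and EGFR rose by 0.77. In the WNT list 10 of 26 rose and 6 fell (median 0.16), with the receptor LGR4 (-0.66) and the ligand WNT4 (-0.57) against WNT11 and the coreceptor LRP5 (0.26).

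TGF-beta and BMP genes rose in 8 of 25 cases and fell in 3, led by the activin subunit INHBB (0.68), and Notch genes in 5 of 24 with 1 lower, led by MAML2 (1.19, under 6 CPM) and NOTCH3 (0.53). Epithelial adhesion genes rose in 16 of 28 cases and fell in 3 (median 0.14). The nectin NECTIN4 and the claudin CLDN3 rose by 0.40 each and the desmocollin DSC2 fell by 0.43. All other HCC1428 groups were above siNT_E2 in this list too. Relative to the siNT_E2 mean, its per-library median was 0.129 to 0.164 in siMDC1_E2 and 0.140 to 0.156 in siER_E2. It was 0.179 to 0.229 in siFOXA1_E2 and 0.129 to 0.155 in siNT. Luminal epithelial genes rose in 10 of 25 cases and fell in 5 (median 0.12), with GATA3, PRLR (0.26) and CD24 (0.31) higher. Their per-library medians were 0.05 to 0.11 in siMDC1_E2 and higher in siER_E2 (0.23 to 0.27), siFOXA1_E2 (0.12 to 0.19) and siNT (0.19 to 0.35). Matrix and integrin genes split 7 up and 8 down among 30. The collagen COL1A1 was at 49.3, 44.1 and 45.8 CPM against 79.4, 79.2 and 77.1 CPM (-0.76; edgeR adjusted p = 3.7e-09) and the protease inhibitor TIMP2 changed by -0.85, while the laminins LAMB1 and LAMC1 rose by 0.62 and 0.59. COL1A1 is also a fibroblast marker. The summed level of the 14 fibroblast markers was 50.6 to 55.7 CPM in siMDC1_E2 and 83.2 to 86.3 CPM in siNT_E2, with 2 of the 14 above 1 CPM and COL3A1, LUM, PDGFRA, THY1 and POSTN at 0.

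Hypoxia and glycolysis genes fell in 15 of 34 cases and rose in 3 (median -0.11), among them ENO2 (-0.58), GAPDH (-0.32) and TPI1 (-0.26). Cholesterol synthesis genes fell in 12 of 25 cases and rose in 3 (median -0.13), and the sterol sensor INSIG1 changed by -0.43 and the synthase FDPS by -0.39. Ribosome biogenesis genes fell in 10 of 30 with 1 higher, led by NOLC1 (-0.54) and RRP1B (-0.49). Heat shock genes fell in 8 of 20 with 1 higher, led by HSPB8 (-0.42) and FKBP4 (-0.40). These lists were also below siNT_E2 in siNT. Per-library medians there were -0.22 to -0.14 for hypoxia and glycolysis, -0.51 to -0.44 for cholesterol, -0.30 to -0.27 for ribosome biogenesis and -0.48 to -0.42 for heat shock. In siMDC1_E2 the hypoxia and glycolysis medians were -0.14 to -0.10. Genes of the unfolded protein and ATF4 responses rose in 11 of 36 cases and fell in 3 (median 0.03), with the chaperone CANX (0.53) and the mTOR inhibitor DDIT4 (0.73) higher and the amino acid transporter SLC7A5 (-0.52) lower. GAPDH, like HSPA8 and TUBB, has many processed copies that may share its reads.

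Mitochondrially encoded genes rose in 11 of 13 cases and none fell, with a median of 0.30. Every other HCC1428 group was also above siNT_E2. The per-library list median relative to the siNT_E2 mean was 0.25 to 0.40 in siMDC1_E2 and 0.23 to 0.42 in siER_E2. It was 0.44 to 0.57 in siFOXA1_E2 and 0.28 to 0.57 in siNT. MT-CO1, a cytochrome oxidase subunit, rose by 0.30 (edgeR adjusted p = 0.00033) and MT-ND6, a complex I subunit, by 0.48. Nuclear genes of the respiratory chain went the other way, with 12 of 36 lower and none higher (median -0.11), led by COX6C (-0.58). Their per-library medians were -0.13 to -0.10 in siMDC1_E2, -0.12 to -0.11 in siER_E2, -0.10 to -0.05 in siFOXA1_E2 and -0.24 to -0.19 in siNT. The mitochondrial share of counts moved with the groups as given above, and siNT_E2 replicate 2 had the highest share of its group at 14.3%. A fit without mitochondrially encoded genes called 5354 genes against 5319.

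Interferon response genes showed no common direction, with 4 of 40 higher, 4 lower and a median of 0.02. IFIT1 was at 1.09, 1.5 and 6.31 CPM against 0.348, 0.646 and 0.511 CPM (2.57; edgeR adjusted p = 0.018), and IFI6, chosen after its values were seen, at 4.28, 13.5 and 69.5 CPM against 8.21, 7.02 and 4.85 CPM (edgeR adjusted p = 0.1). Both were highest in siMDC1_E2 replicate 3; without it, the IFIT1 change was 1.39 and no longer passed the test (edgeR adjusted p = 0.21). The median of the whole list was -0.14, -0.03 and 0.27 in siMDC1_E2 replicates 1, 2 and 3. Of 28 tested genes of the BCL2 family and cell death 5 rose and 6 fell, and of 16 tested NF-kB and cytokine genes none rose and 2 fell, IL20 (-0.92) and SOCS3 (-0.51). Immediate-early transcription factors split 5 up and 4 down among 27 (median -0.02). Components of RNA interference, the machinery that siRNAs use, rose in 3 of 15 cases and fell in 3, with DICER1 at -0.30 and TNRC6B at 0.38.

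Depletion of MDC1 was set beside depletion of the receptor and of FOXA1, which share the siNT_E2 libraries with it, so each is given by its own values. Against siNT_E2, mitosis genes fell in 38 of 39 cases after MDC1 siRNA (median -0.68), in 39 after ESR1 siRNA (-1.66; 28.7% of all genes fell) and in 39 after FOXA1 siRNA (-1.89; 29.5% fell). Estrogen-induced targets fell in 29, 48 and 28 of 51, with medians of -0.26, -1.06 and -0.19. Compared directly, siMDC1_E2 exceeded siER_E2 in 37 mitosis genes (median 1.02), in 41 of 41 replication genes (1.09) and in 45 estrogen-induced targets (0.82), and was lower in none of these; 23.7% of all genes were higher and 17.4% lower. Estrogen-repressed targets were higher in 5 and lower in 15 of 22 (-0.58). Against siFOXA1_E2, 38 mitosis genes were higher (median 1.21; 25.6% of all genes were) and estrogen-induced targets divided into 20 higher and 21 lower (0.07; 19.7% of all genes were lower). GREB1 averaged 319 CPM in siER_E2 and 2186 CPM in siFOXA1_E2, on either side of siMDC1_E2, and IGFBP5 averaged 1065 and 249 CPM.

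The same siRNA target was depleted in the lobular lines, with no library in common with HCC1428. MDC1 fell from a mean of 186 to 42.7 CPM in MM134 (log2 -2.13) and from 195 to 39.8 CPM in MM330 (-2.30). Its fall in HCC1428 was smaller than in MM330 (difference -0.36; edgeR adjusted p of the interaction = 0.0052), and the difference from MM134 did not pass the test (-0.19, SE 0.09; edgeR adjusted p = 0.18). The response of 3993 of 21447 genes (18.6%) differed between HCC1428 and MM134, and that of 2950 (13.8%) differed from MM330. Upward differences made up 58.7% of those in MM134 with TMM scaling and 50.5% with DESeq2, and 54.4% and 47.7% in MM330. Across the 15862 genes tested in both, the log2 changes of HCC1428 and MM134 had a Pearson r of 0.34 and a Spearman rho of 0.45. With MM330, over 16027 genes, they were 0.14 and 0.21. These describe genes of 3 lines treated alike, and genes are not independent replicates.

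Within MM134 50.3% of tested genes were called (25.4% higher, 25.0% lower), and within MM330 20.8% (10.4% in each direction). Of genes called in HCC1428 and tested in MM134, 74.7% were called there too, which is 43.9% of the MM134 calls; 3354 of these 3732 had the same sign (89.9%). With MM330 1851 genes were shared, 36.9% of the HCC1428 calls and 51.2% of the MM330 calls, and 1516 had the same sign (81.9%). Genes that moved the same way in the 3 lines, chosen from the named genes after their values were seen, included TMED10 (-1.26 in HCC1428, -1.96 in MM134, -1.18 in MM330), UBE2N (-0.88, -1.48, -0.93), FRK (-1.34, -1.5, -1.24), THRB (-0.97, -1.44, -1.30), TMCO1 (1.23, 2.15, 1.84), FYCO1 (1.13, 1.67, 1.22) and LAMP2 (0.90, 0.85, 1.37). The difference between HCC1428 and MM330 did not pass the test for TMED10, UBE2N, FRK and FYCO1. In MM134 FRK averaged 1.08 CPM in siNT_E2 and 0.377 CPM in siMDC1_E2, so its change there rests on few counts.

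**Figure D4:**
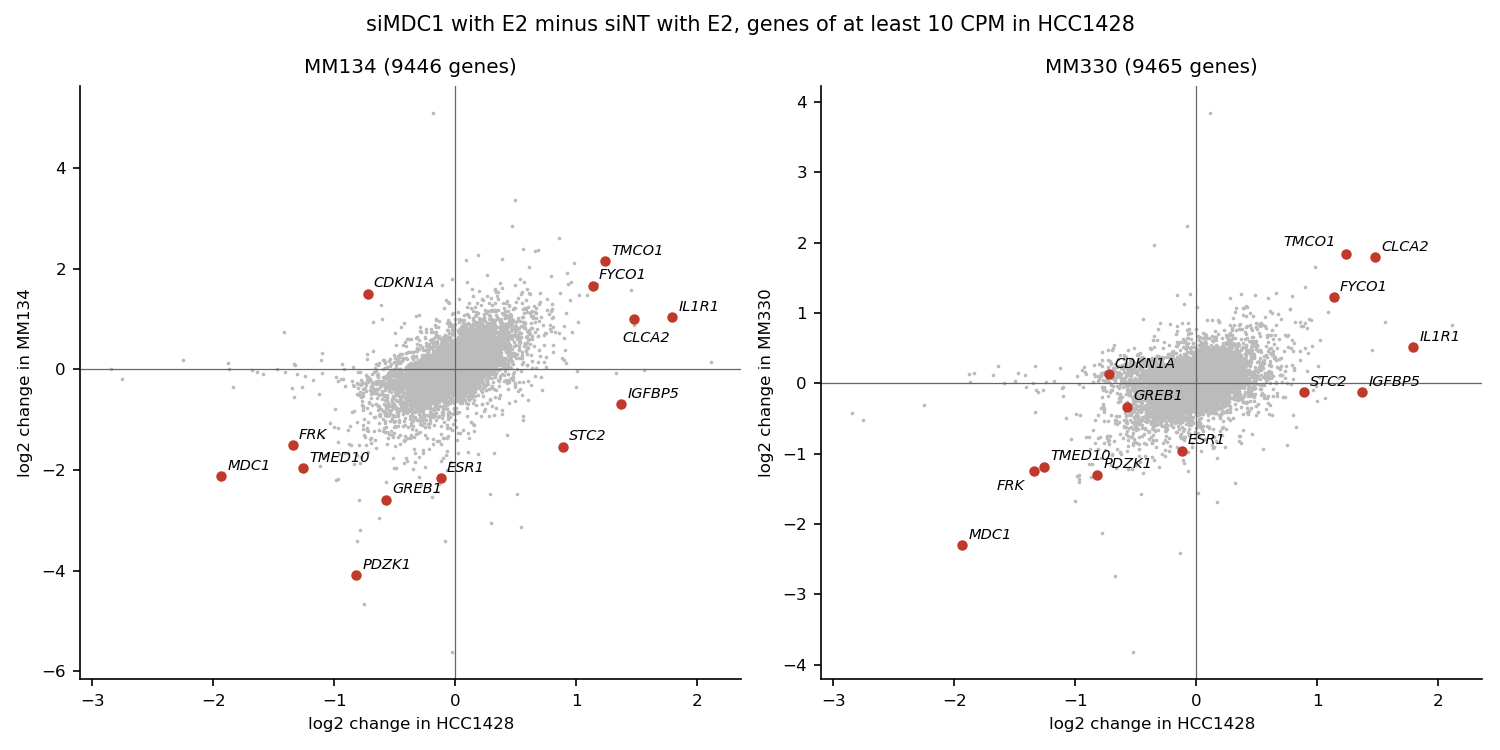
Log2 change after MDC1 siRNA in HCC1428 (horizontal axis) against MM134 (9446 genes) and MM330 (9465 genes, vertical axes), for genes with at least 10 CPM in HCC1428; each point is a gene. MDC1, TMED10 and TMCO1 lie far from the origin on the same side in both panels, while ESR1 lies near 0 in HCC1428 (-0.12) and low in MM134 (-2.16) and MM330 (-0.96).

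The lines differed in the response of the receptor gene. ESR1 fell from a mean of 573 to 129 CPM in MM134 (log2 -2.16) and from 275 to 142 CPM in MM330 (-0.96), against -0.12 in HCC1428. Both differences passed the interaction test, at -2.03 (edgeR adjusted p = 3.2e-23) and -0.84 (edgeR adjusted p = 6.9e-11). GREB1 changed by -0.57 in HCC1428 and by -2.59 in MM134, a difference of -2.01, and PDZK1 by -0.82, -4.09 in MM134 and -1.29 in MM330. Over the estrogen-induced list the change was lower in MM134 than in HCC1428 for 41 genes and higher for 2 (median difference -0.75). Of all genes, 7.69% differed downwards. These counts include genes that did not fall in HCC1428, such as STC2. Between MM330 and HCC1428, 12 of that list differed upwards and 14 downwards (median -0.02), where the background was 7.48% and 6.28%.

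The log2 changes of mitosis genes were lower in HCC1428 than in the lobular lines. In MM134 28 mitosis genes fell and 3 rose (median -0.20), and in MM330 1 fell and 8 rose (0.16), against 38 and 0 in HCC1428. The difference passed the test for 29 of 39 genes in MM134 (median 0.45; 10.9% of all genes differed upwards) and for 38 of 39 in MM330 (0.79), and none of the list differed in the other direction. For DNA replication the counts were 16 of 41 (0.23) and 36 of 41 (0.67). MYBL2 changed by -0.79 in HCC1428, -0.05 in MM134 and 0.15 in MM330, and KIF20A by -0.92, 0.02 and 0.17. The E2 response of the whole list is not compared between lines here. In HCC1428 the siNT list medians lay at -2.43 to -2.36 relative to siNT_E2. For the lobular lines only single members are given, which need not stand for the list. From siNT to siNT_E2 in MM134, MYBL2 went from 178 to 312 CPM, KIF20A from 149 to 112 and TPX2 from 286 to 298. In MM330 they went from 31.6 to 82.0, 65.5 to 67.4 and 77.5 to 105 CPM. CDK1 and MKI67, chosen after their values were seen, went from 32.5 to 53.9 and from 328.5 to 536.4 CPM in MM330. In MM134 CDK1 and MKI67 went from 127.3 to 162.3 and from 972.9 to 1023 CPM. Whether the line differences follow the size of the E2 response was not tested. The lobular lines were not alike in CDKN1A, which changed by 1.51 in MM134 and 0.13 in MM330 against -0.73 in HCC1428. LMNB1, a lamin of the nuclear envelope, changed by -0.16, 0.85 and 1.26, and IGFBP5 by 1.37, -0.69 and -0.12; STC2 rose by 0.89 in HCC1428 and changed by -1.53 in MM134.

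**Figure D5:**
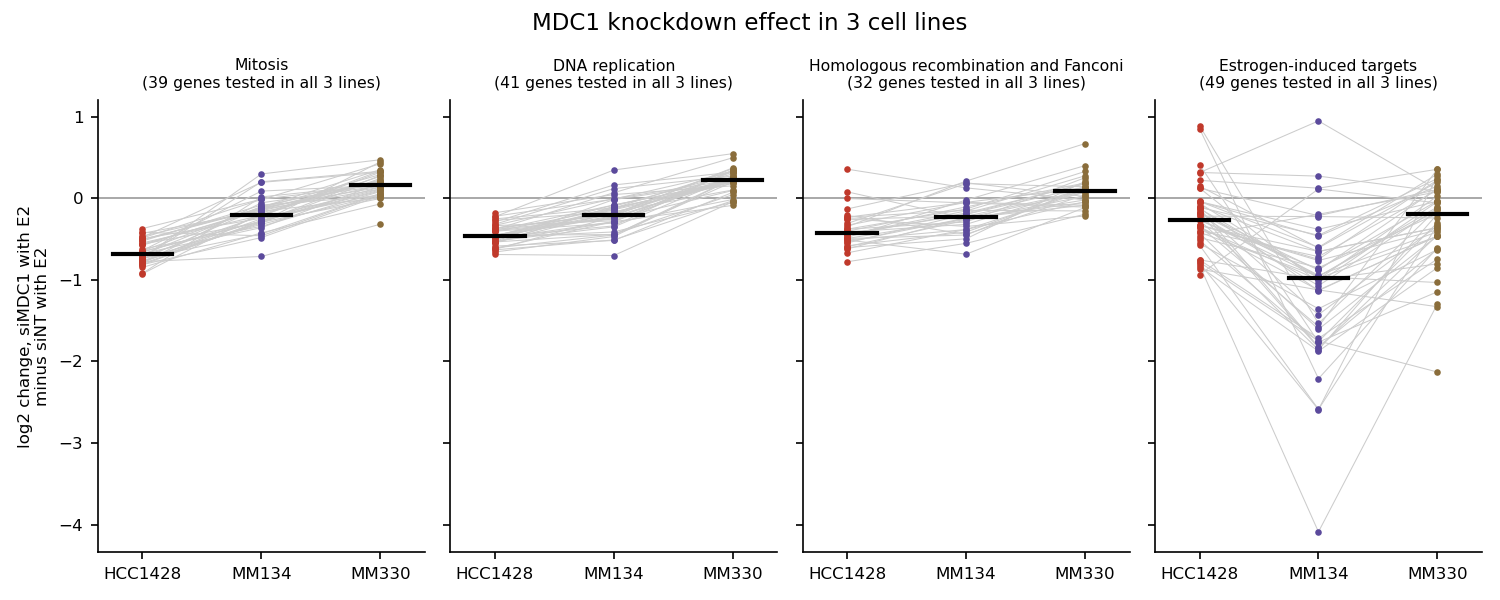
Log2 change after MDC1 siRNA (vertical axis) of the members of 4 gene lists tested in all 3 lines, by line (horizontal axis); points are genes and bars are medians over 39, 41, 32 and 49 genes. The mitosis median is -0.68 in HCC1428, -0.20 in MM134 and 0.16 in MM330, and the estrogen-induced median is -0.26, -0.98 and -0.19.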

How the data were processed

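Libraries of polyadenylated RNA were read from both ends over 150 bases. The submitters' processing notes name STAR 2.6.0a, the build GRCh38 (hg38) and limma; how reads were counted, against which annotation and with which strand setting is not given in the sources used here. Raw counts per gene symbol were deposited by the authors for 45 libraries, and all columns matched a sample. Of 57353 symbols, 27 had been turned into dates, and 56598 were found in GENCODE 29, which gave types and positions.

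Tests used edgeR 4.0.16 in R 4.3.3: filterByExpr by group, TMM scaling, and the quasi-likelihood test on the 15 HCC1428 libraries, with Benjamini-Hochberg adjustment over all genes tested and a call threshold of 0.05. For differences between lines, all 45 libraries were fitted together and interaction contrasts tested. Levels are CPM from TMM-scaled totals within a line and were not compared between genes. List medians per library used log2 of CPM plus 1, and list medians of a comparison used the edgeR log2 changes. The SE was the absolute log2 change over the square root of F. Reads carry no molecular identifiers.

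The libraries, the 40 gene lists (1075 genes), the rule for named genes and the alternatives were chosen with earlier results of these data known. The rule took MDC1, ESR1, FOXA1 and TMCO1, the 10 largest called changes of protein-coding genes in each direction (at least 10 CPM, no overlap), the 3 highest and 3 lowest non-coding genes with at least 5 CPM, up to 4 called members per list ranked by p, 6 estrogen targets, and the 5 highest and 5 lowest genes of each line difference and beyond the other 12 HCC1428 libraries. Genes named outside the rule, such as exceptions within a list and uncalled MDC1 partners, were picked with their values known. Alternatives were DESeq2 1.42.0, limma-voom (limma 3.58.1), RLE scaling, no filter, a replicate block, the compared libraries only, no mitochondrially encoded genes, no libraries of high pseudogene share (above 0.297%), and each library left out. The pipeline was tested on simulated counts, with changed genes drawn from those of at least 10 CPM at folds of 1.5, 2, 4 and 0.25. Of 50 genes at each fold, 100% were recovered in the comparison of siMDC1_E2 with siNT_E2, with 17 false calls among 18286 genes. Of the 5319 calls in the data, 4445 were under 1.5-fold, and recovery of such changes was not simulated. In the interaction of MM330 and HCC1428, 84% were recovered at 1.5-fold, 94% at 2-fold, 98% at 4-fold and 100% at 0.25-fold, with 6 false calls among 21447 genes.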

Additional observations from a re-analysis of the deposited data

Results flagged for a closer look

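The response to MDC1 siRNA differed between lines, by the edgeR interaction test, for these named genes; values are differences of log2 changes and no explanation was tested. In MM134 minus HCC1428 the estrogen receptor gene and its targets had lower values: ESR1 (-2.03), GREB1 (-2.01), PDZK1 (-3.26), PGR (-3.40), CXCL12 (-2.16), MYC (-0.75), TFF1 (-0.54) and, near the threshold, FOXA1 (-0.19). The lowest differences were those of FAM13C (-4.56), the gap junction gene GJA1 (-3.89), the peptide receptor gene GRPR (-3.67) and BAHCC1 (-3.36). The highest were those of the guidance receptor ROBO2 (5.89), the calcium pump ATP2A3 (4.73), FRAS1 (2.87), the protease CAPN2 (2.38) and CDKN1A (2.24). FAM13C, PGR, ROBO2 and ATP2A3 had too few counts to be tested within MM134, so these sizes depend on the prior count of the fit. Others also rest on few counts: in MM134, from siNT_E2 to siMDC1_E2, GJA1 averaged 0.690 and 0.0228 CPM, FRAS1 0.0368 and 0.388 CPM, CAPN2 0.0573 and 0.435 CPM, GRPR 2.14 and 0.240 CPM and BAHCC1 3.54 and 0.423 CPM, and CXCL12 was under 1 CPM in HCC1428. For PGR the difference was -6.0 without MM134 siMDC1_E2 replicate 1, and for FRAS1 the call was lost without MM134 siNT_E2 replicate 1 (2.20; edgeR adjusted p = 0.051).

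In MM330 minus HCC1428 the differences were MDC1 (-0.36), ESR1 (-0.84), FOXA1 (-0.32), PGR (-0.85), PDZK1 (-0.48), CXCL12 (-1.57) and GREB1 (0.24). The lowest were TEAD2 (-4.51), ARMCX1 (-2.28), the collagen COL12A1 (-1.85), the adenylyl cyclase ADCY1 (-1.74) and IGFBP5 (-1.50). The highest were B4GALNT1 (3.52), the interferon-induced IFI44 (2.32), the lamin LMNB1 (1.41), WFIKKN1 (1.35) and RGS14 (1.23). TEAD2 and B4GALNT1 were not tested within MM330 because of few counts. ARMCX1, RGS14 and, in siNT_E2, IFI44 and WFIKKN1 averaged under 1 CPM in MM330, as did COL12A1 in siMDC1_E2, so their sizes rest on few counts too. Leaving out single MM330 libraries ended the call for TEAD2, ARMCX1 (-1.79 without MM330 siMDC1_E2 replicate 1), B4GALNT1 (3.05 without MM330 siNT_E2 replicate 1) and RGS14 (0.97 without MM330 siNT_E2 replicate 3).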

How the results depend on the processing

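No named result reversed. Calls in siMDC1_E2 against siNT_E2 numbered 5199 with DESeq2, 5382 with RLE scaling, 5325 with limma-voom, 5569 without the filter, 5108 with the compared libraries only and 5329 without libraries of high pseudogene share. The mitosis median log2 change was -0.685 with DESeq2, RLE scaling and no filter, -0.662 with the compared libraries only, -0.647 without libraries of high pseudogene share, and -0.706 to -0.643 with single libraries left out. With single libraries left out, the homologous recombination median was -0.466 to -0.403 and the estrogen-induced median -0.268 to -0.235. For genes raised by E2 in both lobular lines the median was -0.283 with the compared libraries only, -0.310 without the filter, -0.287 without libraries of high pseudogene share, and -0.300 to -0.278 with single libraries left out. Of 203 named genes, 1 to 6 lost their call when a single library was left out. Differences between MM134 and HCC1428 were 58.7% upwards with TMM, 50.5% with DESeq2 and 51.6% with RLE scaling. Those between MM330 and HCC1428 were 54.4%, 47.7% and 48.2% upwards, and numbered 2007 without libraries of high pseudogene share against 2950, with 65.1% of the latter kept. In HCC1428, leaving that class out keeps only replicate 1 of siER_E2 and replicate 3 of siNT. Comparisons with those groups therefore cannot be checked in that way. Same-numbered libraries did not deviate together (7 of 26 pairs correlated above 0.1, and 5 of 15 libraries correlated best with their own number), and the compared groups share only numbers 2 and 3. With the replicate number as a block, 4238 genes were called, 4003 of them among the 5319; medians were -0.640 for mitosis, -0.414 for DNA replication and -0.234 for estrogen-induced targets, of which 4 rose, and 7 named genes lost their call.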
